A study of Homo sapiens with 6 samples.

Results

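The pentose phosphate pathway and the cytosolic enzymes that make NADPH were followed at the mRNA level in A549, an epithelial line from a human lung adenocarcinoma, treated with the compound Japoflavone B. Genes were taken by symbol from the deposited table: PGLS, PGD, RPIA, RPE, TKT, TALDO1, ME1 and IDH1, 8 of the 61806 genes listed, each found once. The labels give 3 libraries of cells that received Japoflavone B at 40, with no unit given for the dose, and 3 libraries of cells that received the solvent DMSO. In both groups the cells had been seeded 24 h before and were treated for 24 h, and the labels give the genotype as wild type. The series title places the compound in a ROS, p38 and p53 route of cell death, and the comparison addresses which mRNAs differ between treated and solvent cells.

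The pentose phosphate pathway branches from glycolysis at glucose 6-phosphate. Its oxidative arm yields NADPH and ribulose 5-phosphate, and its reversible non-oxidative arm exchanges pentose phosphates with fructose 6-phosphate and glyceraldehyde 3-phosphate. ME1 and IDH1 are cytosolic enzymes outside the pathway that also reduce NADP. NADPH serves glutathione and thioredoxin reduction and lipid synthesis, and ribose 5-phosphate is the sugar of nucleotides. In A549 cells the transcription factor NRF2, which binds antioxidant response elements, is known to be constitutively active and to drive several of these genes.

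After Japoflavone B, 6 of the 8 genes fell (PGD, RPE, TKT, TALDO1, ME1 and IDH1) and 2 rose (RPIA and PGLS), in a test where 35.4% of all 16082 tested genes were lower and 34.7% higher, together 70% (edgeR quasi-likelihood test, Benjamini-Hochberg adjusted p under 0.05). RPIA, the ribose 5-phosphate isomerase gene, was the single member that changed by at least 2-fold, which 9.67% of all tested genes did upward and 15% downward; with libraries scaled by totals alone or as FPKM its log2 fold change was 0.948 to 0.998, just under 2-fold, and still passed the test. ME1 and IDH1 were 1.58-fold and 1.59-fold lower, and the other 4 that fell were 1.15-fold to 1.22-fold lower. Changes of larger size, in either direction, were found in 41.2% of tested genes for ME1 and 40.6% for IDH1. For PGLS, PGD, RPE, TKT and TALDO1 that share was 61.3% to 79.9%. The FPKM of the groups did not overlap for any of the 8 genes, as for 71.6% of all tested genes. FPKM relate counts to the exonic length of the gene and to the library total, while fold changes use trimmed mean of M-values factors and come out 0.10 log2 higher in the median gene. Permuting the libraries exactly, with a two-sided test on log2 CPM (counts scaled to library size), gave p = 0.1 for each of the 8 genes, the smallest value that 3 against 3 libraries allow.

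Sequence just before a RefSeq start of transcription is shown for 5 of the 8 genes. They are 4 that fell and hold a match to the antioxidant response element core, and RPIA, the gene that rose most. These were chosen by both match and direction, and a link between match and direction was not tested. The sequences are RefSeq promoter windows on GRCh38.p14, 250 bases before the RefSeq start, 5' to 3' in the direction of the gene. That start can differ from the start of the gene spans given below. The windows shown for PGD and IDH1 lie inside those spans, and the window of RPE crosses the first base of its span. All 8 genes had a window, and IDH1 had 2. The core was searched as TGACNNNGC on both strands, and capitals mark each match; on the opposite strand a match is printed as its reverse complement.
ME1 (chr6:83431052-83431301, minus strand): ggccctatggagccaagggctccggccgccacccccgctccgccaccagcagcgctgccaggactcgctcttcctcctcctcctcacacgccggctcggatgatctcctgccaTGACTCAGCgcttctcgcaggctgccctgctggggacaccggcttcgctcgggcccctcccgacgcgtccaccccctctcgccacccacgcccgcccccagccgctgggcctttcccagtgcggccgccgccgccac
IDH1 (chr2:208255072-208255321, minus strand): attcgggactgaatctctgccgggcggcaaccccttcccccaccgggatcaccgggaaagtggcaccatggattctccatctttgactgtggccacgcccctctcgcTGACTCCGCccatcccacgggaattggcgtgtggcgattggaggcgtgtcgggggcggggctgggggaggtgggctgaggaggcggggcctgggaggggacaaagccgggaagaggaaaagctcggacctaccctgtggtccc
PGD (chr1:10398814-10399063, plus strand): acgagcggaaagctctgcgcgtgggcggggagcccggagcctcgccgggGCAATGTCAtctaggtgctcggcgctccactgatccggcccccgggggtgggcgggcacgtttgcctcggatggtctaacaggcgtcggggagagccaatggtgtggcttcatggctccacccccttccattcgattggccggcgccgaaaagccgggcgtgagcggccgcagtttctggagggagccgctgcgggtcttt
RPE (chr2:210002388-210002637, plus strand): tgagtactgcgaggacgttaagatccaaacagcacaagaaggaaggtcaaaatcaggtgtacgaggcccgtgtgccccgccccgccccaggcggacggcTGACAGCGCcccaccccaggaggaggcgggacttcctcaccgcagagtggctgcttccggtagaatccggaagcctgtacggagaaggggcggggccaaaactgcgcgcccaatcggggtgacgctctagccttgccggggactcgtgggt
RPIA (chr2:88691423-88691672, plus strand): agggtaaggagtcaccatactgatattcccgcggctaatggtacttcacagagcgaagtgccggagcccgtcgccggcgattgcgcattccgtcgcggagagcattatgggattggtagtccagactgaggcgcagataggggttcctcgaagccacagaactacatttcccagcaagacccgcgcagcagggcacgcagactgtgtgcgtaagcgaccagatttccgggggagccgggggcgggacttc
The match in ME1 is TGACTCAGC, which also contains the AP-1 motif TGACTCA, and its first base lies 137 bases before the start. IDH1 has TGACTCCGC 143 bases before the start in the window shown and no match in its other window. RPE has TGACAGCGC 151 bases before the start, and PGD has TGACATTGC on the opposite strand, from 201 bases before the start. No match was present in the windows of RPIA, PGLS, TKT and TALDO1. Of all 35116 promoter windows of this length, 10.9% hold a match, and a match describes the letters only.

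Libraries held 15733769 to 19822366 gene counts after Japoflavone B and 15298531 to 21744407 after DMSO. The 8 genes took 0.413% ± 0.0054 of counts after Japoflavone B and 0.528% ± 0.0233 after DMSO (SD, n = 3 each). This share uses library totals alone and mostly reflects TKT and PGD. TKT and PGD held 107496 and 77919 counts over the Japoflavone B libraries, and 141139 and 108938 over the DMSO libraries. Mitochondrial genes took 8.43% ± 0.127 of counts after Japoflavone B and 4.36% ± 0.371 after DMSO (SD, n = 3 each), and the calls of all 8 genes were the same when mitochondrial genes were left out. That setting moved the median gene by only -0.00035 log2, so it could hardly change a call. What the higher mitochondrial share means for the 8 genes was not tested. The epithelial genes KRT7, KRT8, KRT18, KRT19, EPCAM and CDH1 were all detected, with summed levels of 562 to 596 FPKM after Japoflavone B and 1148 to 1317 FPKM after DMSO; 5 of the 6 fell, and EPCAM did not pass. The 6 genes of other cell types (PTPRC, CD14, PECAM1, VWF, COL1A2 and DCN) summed to 0.33 to 0.56 FPKM after Japoflavone B and 2.22 to 3.24 FPKM after DMSO. Most of the DMSO sums was CD14 alone, at 2.07, 2.51 and 3.02 FPKM. PTPRC had 0 counts over the Japoflavone B libraries and 2 over the DMSO libraries. CD14 fell, COL1A2 did not pass, the other 4 had too few counts to be tested, and VWF had 0 counts throughout. The part of these markers in the results below was not tested, and in bulk RNA fewer cells of a kind and less RNA per cell cannot be told apart. Whether each library came from its own culture is not in the labels, and p-values cover only the spread among these 6 libraries, which may be technical.

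In the oxidative arm the 2 genes moved in opposite directions. PGD (ENSG00000142657, chromosome 1, 10398592 to 10420511, GRCh38) encodes 6-phosphogluconate dehydrogenase, which releases NADPH and ribulose 5-phosphate. PGD had 435, 438 and 426 FPKM in the Japoflavone B libraries, against 550.1, 563 and 587 FPKM in the DMSO libraries. The 3 treated libraries lay close together and all below the lowest DMSO library. PGD averaged 433 ± 5.99 FPKM after Japoflavone B and 567 ± 18.8 FPKM after DMSO (SD, n = 3 each), and was 1.22-fold lower, with a log2 fold change of -0.29 ± 0.05 (SE; edgeR adjusted p = 5.21e-06). It is an abundant mRNA in these cells: over the 6 libraries only 0.261% of tested genes had a higher mean FPKM.

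PGLS (ENSG00000130313, chromosome 19, 17511636 to 17521288, GRCh38) encodes 6-phosphogluconolactonase, which acts just before PGD. PGLS had 14.6, 13.2 and 13.1 FPKM in the Japoflavone B libraries, against 9.45, 11.4 and 12.8 FPKM in the DMSO libraries. The groups were separated by a narrow margin, since the highest DMSO library nearly reached the lowest treated one. Its log2 fold change was 0.39 ± 0.09 (SE; edgeR adjusted p = 3.52e-04), or 1.31-fold higher. The divergent transcript PGLS-DT, named after its values were seen, starts on the opposite strand and its span overlaps the first bases of PGLS. It had 64, 67 and 49 counts in the Japoflavone B libraries and 12, 26 and 10 counts in the DMSO libraries. These sums are 8.59% of the PGLS counts after Japoflavone B and 2.64% after DMSO. The strand setting of the counting is not given in the sources used here, so reads in the overlap cannot be assigned to a strand.

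The enzymes that share the substrate ribulose 5-phosphate diverged most. RPIA (ENSG00000153574, chromosome 2, 88691673 to 88750929, GRCh38) turns it into ribose 5-phosphate, the precursor of the ribose in nucleotides. RPIA had 26.7, 29.8 and 26.9 FPKM in the Japoflavone B libraries, against 12.7, 14.4 and 14.75 FPKM in the DMSO libraries. Every treated library stood well above every DMSO library. RPIA averaged 27.8 ± 1.77 FPKM after Japoflavone B and 13.9 ± 1.09 FPKM after DMSO (SD, n = 3 each), and was 2.14-fold higher, with a log2 fold change of 1.10 ± 0.08 (SE; edgeR adjusted p = 1.06e-12). A higher log2 fold change was found in 8.23% of all tested genes, and a change of larger size in either direction in 21.6%. No other gene of the deposited table overlaps its span, and its pseudogene RPIAP1 had 0 counts in all 6 libraries.

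RPE (ENSG00000197713, chromosome 2, 210002565 to 210022260, GRCh38) is the epimerase that makes xylulose 5-phosphate from the same substrate. RPE had 23.6, 25.35 and 25.6 FPKM in the Japoflavone B libraries, against 33.1, 29.7 and 29.15 FPKM in the DMSO libraries. All treated libraries were lower, though DMSO replicate 1 stood above the other two. RPE averaged 24.8 ± 1.07 FPKM after Japoflavone B and 30.7 ± 2.14 FPKM after DMSO (SD, n = 3 each), and was 1.15-fold lower, with a log2 fold change of -0.20 ± 0.06 (SE; edgeR adjusted p = 0.00426). The call was lost without Japoflavone B replicate 1 (-0.16 log2, edgeR adjusted p = 0.0618), where the sign stayed; it was kept under the other 14 alternatives. The processed copies RPEP1 to RPEP6 had 0 counts throughout, and the related gene RPEL1 had 29 counts over the Japoflavone B libraries and 37 over the DMSO libraries. KANSL1L, which overlaps RPE on the opposite strand, had 365 counts over the Japoflavone B libraries and 542 over the DMSO libraries, 7.74% and 8.63% of those of RPE in the same groups.

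**Figure D1:**
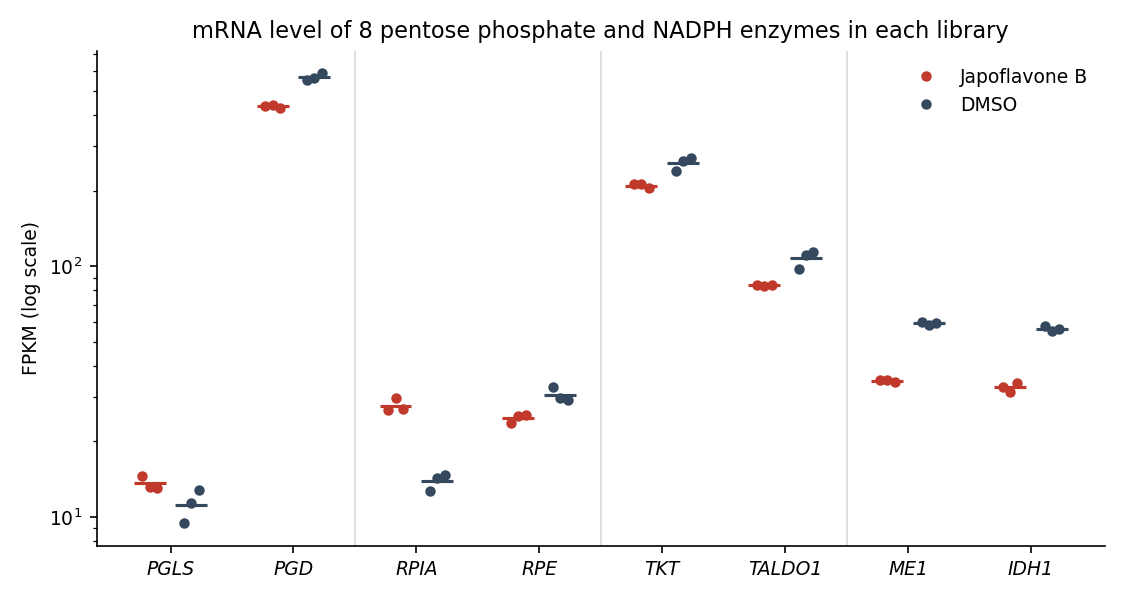
FPKM on a log axis for each of the 8 genes, with a point per library and a bar at the mean of 3 libraries, Japoflavone B left of DMSO in each pair. Red points lie above dark ones for PGLS and RPIA and below them for the other 6 genes, with RPIA at 27.8 against 13.9 FPKM.

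The carbon-transferring enzymes of the non-oxidative arm were both modestly lower. TKT (ENSG00000163931, chromosome 3, 53224712 to 53256052, GRCh38) encodes transketolase, which moves 2-carbon units with the help of thiamine diphosphate. TKT had 212, 212 and 205 FPKM in the Japoflavone B libraries, against 239, 263 and 271 FPKM in the DMSO libraries. The treated libraries all fell below the lowest DMSO library, DMSO replicate 1. TKT averaged 209.6 ± 4 FPKM after Japoflavone B and 258 ± 16.5 FPKM after DMSO (SD, n = 3 each), and was 1.15-fold lower, with a log2 fold change of -0.20 ± 0.05 (SE; edgeR adjusted p = 0.00109). The paralog TKTL1 had 1 count over the Japoflavone B libraries and 1 over the DMSO libraries, and TKTL2 had 0 and 1, so transketolase mRNA in these cells was almost entirely TKT.

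TALDO1 (ENSG00000177156, chromosome 11, 747415 to 765012, GRCh38) encodes transaldolase, which moves 3-carbon units from sedoheptulose 7-phosphate. TALDO1 had 83.7, 83.4 and 84.0 FPKM in the Japoflavone B libraries, against 97.7, 111 and 114 FPKM in the DMSO libraries. The treated libraries were nearly identical, while DMSO replicate 1 was the lowest of its group, as for TKT. TALDO1 averaged 83.7 ± 0.295 FPKM after Japoflavone B and 107.6 ± 8.68 FPKM after DMSO (SD, n = 3 each), and fell, with a log2 fold change of -0.26 ± 0.06 (SE; edgeR adjusted p = 1.57e-04).

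The cytosolic NADPH enzymes outside the pathway both fell, with log2 differences of larger size than those of the 4 pathway genes that fell; the difference between genes was not tested. ME1 (ENSG00000065833, chromosome 6, 83210402 to 83431051, GRCh38) encodes malic enzyme 1, which turns malate into pyruvate. ME1 had 35.2, 35.1 and 34.4 FPKM in the Japoflavone B libraries, against 60.0, 58.1 and 59.6 FPKM in the DMSO libraries. Both groups were tight and far apart. ME1 averaged 34.9 ± 0.434 FPKM after Japoflavone B and 59.2 ± 0.97 FPKM after DMSO (SD, n = 3 each), and was 1.58-fold lower, with a log2 fold change of -0.66 ± 0.05 (SE; edgeR adjusted p = 5.88e-12).

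IDH1 (ENSG00000138413, chromosome 2, 208236229 to 208266074, GRCh38) encodes the cytosolic and peroxisomal isocitrate dehydrogenase, which makes 2-oxoglutarate. IDH1 had 33.05, 31.6 and 34.1 FPKM in the Japoflavone B libraries, against 57.6, 55.0 and 56.0 FPKM in the DMSO libraries. No library of one group came near the other group. IDH1 averaged 32.9 ± 1.23 FPKM after Japoflavone B and 56.2 ± 1.33 FPKM after DMSO (SD, n = 3 each), and was 1.59-fold lower, with a log2 fold change of -0.67 ± 0.05 (SE; edgeR adjusted p = 3.34e-12). The antisense gene IDH1-AS1 had 102 counts over the Japoflavone B libraries and 82 over the DMSO libraries, or 1.22% and 0.536% of the IDH1 counts in the same groups, and did not pass (log2 fold change 0.50 ± 0.31, SE; edgeR adjusted p = 0.144).

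**Figure D2:**
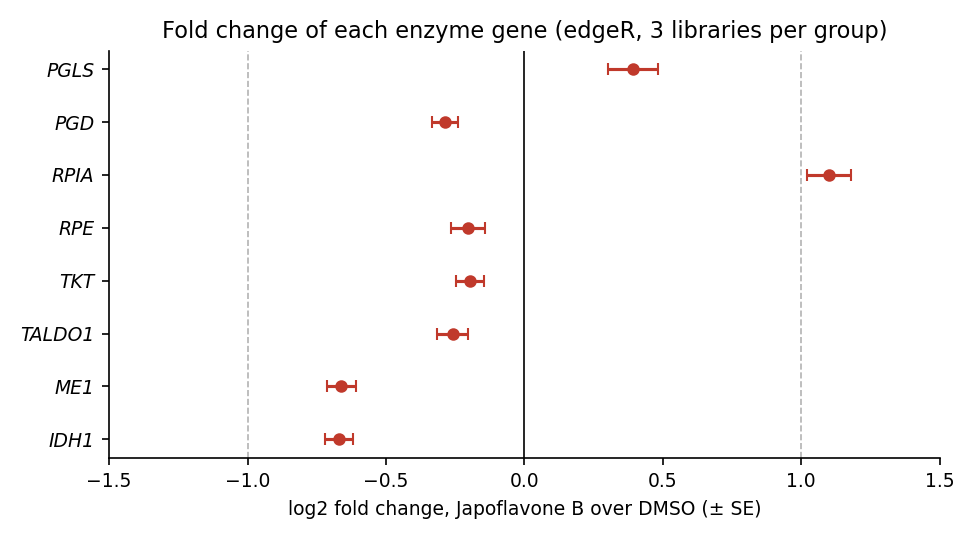
Log2 fold change of the 8 genes, Japoflavone B over DMSO, with bars of 1 SE from edgeR and dashed lines at a 2-fold change. RPIA at 1.10 lies past the dashed line, ME1 and IDH1 sit together at -0.66 and -0.67, and PGD, RPE, TKT and TALDO1 lie between -0.29 and -0.20.

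The count ratio of 2 genes in the same library does not depend on how libraries are scaled. It follows from the changes of the 2 genes given above and restates them free of scaling. RPIA had 0.576 ± 0.0329 counts per count of RPE after Japoflavone B and 0.235 ± 0.0336 after DMSO (SD, n = 3 each), with no overlap of the groups. PGLS had 0.0268 ± 0.0016 counts per count of PGD after Japoflavone B and 0.0168 ± 0.002 after DMSO, again with no overlap. TKT had 8.18 ± 0.18 counts per count of TALDO1 after Japoflavone B and 7.84 ± 0.139 after DMSO, where the groups overlapped. ME1 had 0.754 ± 0.0357 counts per count of IDH1 after Japoflavone B and 0.749 ± 0.00875 after DMSO, where the groups also overlapped. In log2 terms these ratios differed by 1.30, 0.68, 0.06 and 0.01. The ratios describe the libraries and were not tested.

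**Figure D3:**
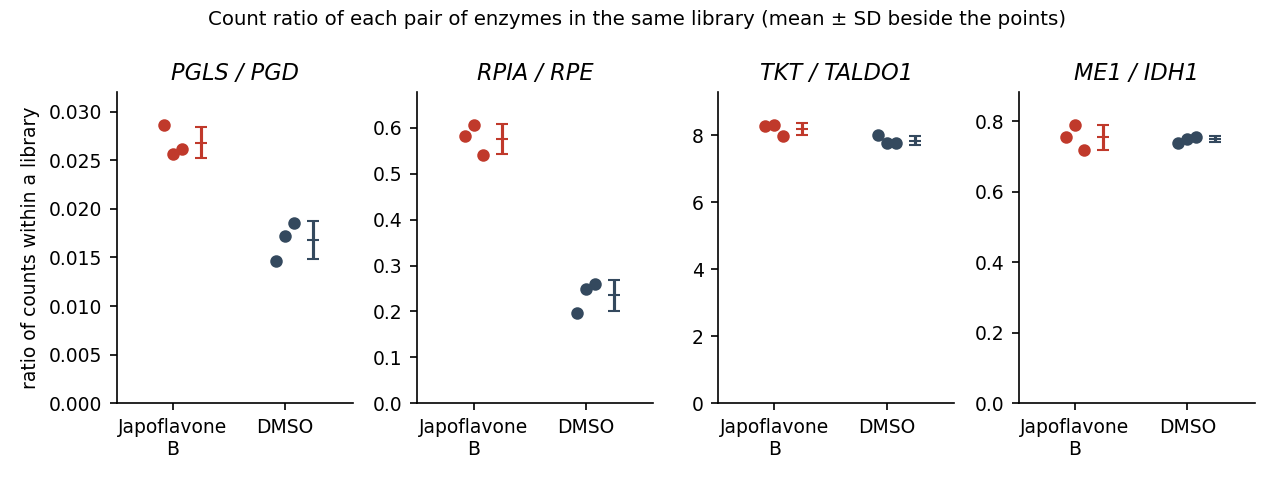
Ratio of the counts of 2 genes within each library, with a point per library and the mean ± SD beside the points, Japoflavone B left of DMSO. The ratio of RPIA to RPE was 0.576 after Japoflavone B and 0.235 after DMSO, while that of ME1 to IDH1 was 0.754 and 0.749.

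By FPKM the order of levels after DMSO was PGD, TKT, TALDO1, ME1, IDH1, RPE, RPIA and PGLS. After Japoflavone B it was the same except that RPIA stood above RPE. In neither group did the libraries of neighbouring genes in this order overlap, apart from RPIA and PGLS after DMSO, where 12.7 to 14.75 FPKM met 9.45 to 12.8 FPKM. The order rests on the exonic sizes in the deposited table, which for some genes exceed the transcript: TKT is given 9502 bases, whereas its longest principal transcript in GENCODE 29 has 3010 bases. With the principal transcript length in place of the exonic size in FPKM, PGD, TKT and TALDO1 remained the highest 3 in both groups, with PGD at 766 after Japoflavone B and 1002 after DMSO. The order of the other 5 changed: IDH1 stood above ME1 in both groups, RPIA was the lowest of the 8 in both groups, and PGLS, the lowest by FPKM, stood above ME1 and RPE after Japoflavone B. PGLS was then at 37.6, ME1 at 34.6 and RPE at 34.1. On that scale RPIA did not pass RPE: RPIA stood at 27.3 and RPE at 34.1 after Japoflavone B, and RPIA at 13.7 and RPE at 42.1 after DMSO. Fold changes do not use the length.

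Of 7 tested other genes of pentose phosphate metabolism, 3 fell, 1 rose and 3 did not pass, with a median log2 fold change of -0.22 beside -0.0038 over all tested genes. Counts for this list and those below stand beside 35.4% of all tested genes lower and 34.7% higher. The lists were chosen with earlier results of these data known. The one that rose was H6PD, which runs the first oxidative steps inside the endoplasmic reticulum (log2 fold change 0.37 ± 0.06, SE; edgeR adjusted p = 7.51e-06). DERA, the deoxyribose phosphate aldolase gene, was lower in every treated library, with 8.25, 6.96 and 7.27 FPKM after Japoflavone B against 19.5, 20.2 and 20.7 FPKM after DMSO (2.50-fold lower; edgeR adjusted p = 1.15e-14). SHPK, which phosphorylates sedoheptulose, and PGM2, which interconverts ribose phosphates, were 1.57-fold and 1.43-fold lower. RBKS, the ribokinase gene, IDNK, the gluconokinase gene, and RPEL1 did not pass, at 0.01, -0.22 and -0.15 log2.

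Among 12 other genes that make NADPH or NADP, 9 fell, 2 rose and 1, the cytosolic NAD kinase gene NADK, did not pass (0.04 log2); the list median was -0.44 log2. The mitochondrial members split. NNT, the proton-driven transhydrogenase of the inner membrane, had 1.31, 1.22 and 1.18 FPKM in the Japoflavone B libraries, against 4.13, 3.99 and 3.64 FPKM in the DMSO libraries, and was 2.96-fold lower (edgeR adjusted p = 1.49e-15). IDH2, the mitochondrial counterpart of IDH1, was 1.87-fold lower, the malic enzyme ME3 2.04-fold lower and the mitochondrial NAD kinase NADK2 1.31-fold lower. The 2 that rose belong to mitochondrial folate metabolism: MTHFD2, which works mainly with NAD, was 3.92-fold higher, and ALDH1L2, which makes NADPH from formyl-tetrahydrofolate, 1.63-fold higher (edgeR adjusted p = 9.19e-23 and 2.80e-06). MTHFD2L, the mitochondrial paralog of MTHFD2, went the other way and was 1.40-fold lower (edgeR adjusted p = 7.99e-04). Of the cytosolic folate genes, MTHFD1 was 1.59-fold lower, and ALDH1L1 had 5 counts over the Japoflavone B libraries and 44 over the DMSO libraries, a call lost with limma on log2(FPKM + 1) (adjusted p = 0.130). ME2 and GLUD1, which can use NAD, were 1.26-fold and 1.16-fold lower.

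Downstream of ribose 5-phosphate, 3 of 4 tested genes of phosphoribosyl pyrophosphate synthesis fell, with a median of -0.33 log2. PRPS1, the synthetase, had 14.6, 15.7 and 14.6 FPKM in the Japoflavone B libraries, against 30.8, 32.6 and 33.0 FPKM in the DMSO libraries, and was 2.00-fold lower (edgeR adjusted p = 2.54e-14). Its paralog PRPS2 was 1.39-fold lower. The associated protein gene PRPSAP1 stood at -0.17 log2 (edgeR adjusted p = 0.0333), a call lost in 5 of 15 alternatives at adjusted p of up to 0.206, while PRPSAP2 did not pass at 0.14 log2, though it was called higher without Japoflavone B replicate 1 (0.20 log2, edgeR adjusted p = 0.0294).

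At the junction with glycolysis, 10 of 15 genes rose and 5 fell, and the median stood at 0.53 log2. TIGAR, a p53 target gene whose product lowers fructose 2,6-bisphosphate, had 3.82, 3.45 and 3.76 FPKM in the Japoflavone B libraries, against 1.54, 1.47 and 1.29 FPKM in the DMSO libraries, and was 2.75-fold higher (edgeR adjusted p = 4.93e-14). PFKFB3, which makes fructose 2,6-bisphosphate, was 2.00-fold lower, PFKFB2 was 1.56-fold lower and PFKFB4 2.01-fold higher. The phosphofructokinase genes PFKP, PFKL and PFKM were 2.18-fold, 1.44-fold and 1.26-fold higher. Among the hexokinases, which supply glucose 6-phosphate, HK1 rose by 0.92 log2, HK2 had 303 counts over the Japoflavone B libraries and 24 over the DMSO libraries, and HKDC1 was 3.87-fold lower. The other genes that fell were TPI1 (-0.38 log2) and GPI (-0.13 log2, lost without Japoflavone B replicate 1 or 3, where the edgeR adjusted p was 0.0840 and 0.122).

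Of 13 genes whose products spend NADPH or related cofactors, 10 fell, 2 rose and BLVRB did not pass, with a median of -0.89 log2. The glutathione reductase gene GSR was 1.85-fold lower, the fatty acid synthase gene FASN 2.30-fold lower and DHCR7 2.06-fold lower. CYB5R1, whose enzyme family works mainly with NADH, was among those that rose, at 2.11-fold higher. Of 6 genes of NRF2 and its partners, 5 rose and KEAP1, the gene of its inhibitor, fell by 1.07 on the log2 scale. NFE2L2, the gene of NRF2 itself, stood at 0.16 log2, a call lost when libraries were scaled by totals alone or as FPKM (0.06 log2 in each case). BACH1, a repressor that competes for the same elements, had 9.42, 9.46 and 10 FPKM in the Japoflavone B libraries, against 4.25, 4.24 and 4.25 FPKM in the DMSO libraries, and was 2.43-fold higher. The small MAF genes MAFK, MAFF and MAFG, whose products pair with either factor, were 3.46-fold, 3.66-fold and 1.23-fold higher (edgeR adjusted p = 4.67e-20, 2.50e-14 and 2.14e-05).

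**Figure D4:**
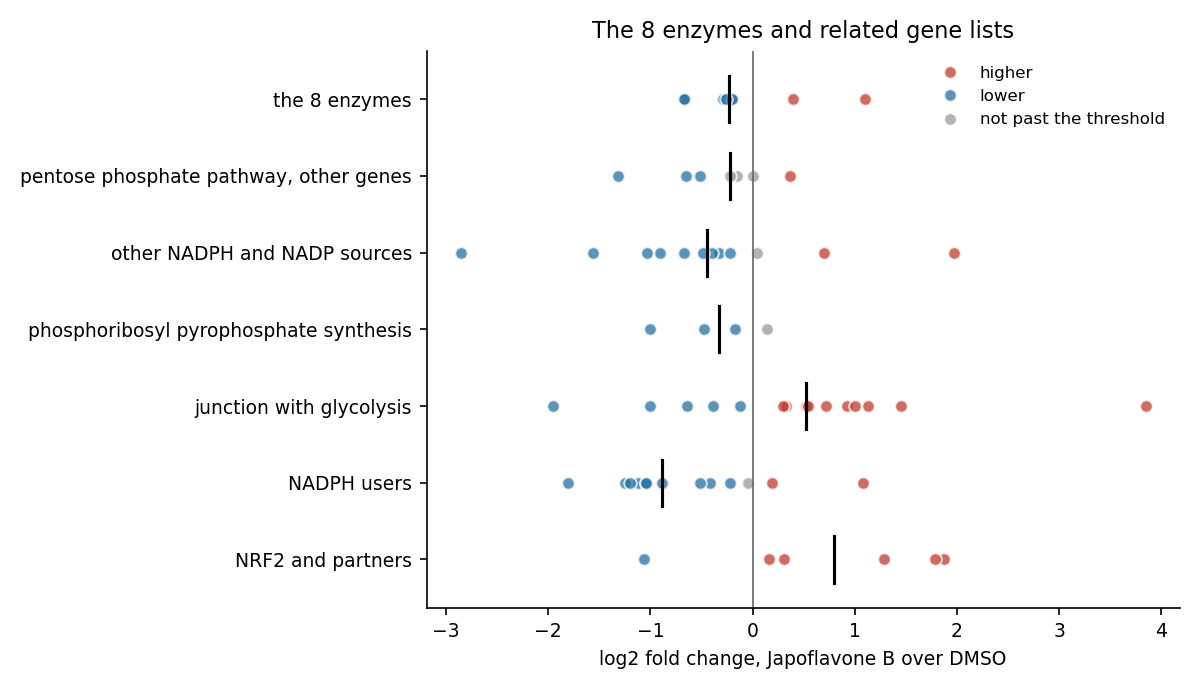
Log2 fold change, Japoflavone B over DMSO, of the 8 genes and of the tested genes of 6 related lists, with a point per gene, red for higher, blue for lower and grey for genes not past the threshold, and a black bar at the median. Medians lie at -0.23 for the 8 genes, -0.44 for other NADPH sources, -0.89 for NADPH users and 0.53 at the junction with glycolysis.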

How the data were processed

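Poly(A) RNA was sequenced from 3 Japoflavone B and 3 DMSO libraries, per the labels' protocols. Per the submitters' processing notes the tools were cutadapt 1.9.1, HISAT2 2.0.1, HTSeq 0.6.1 and DESeq2, with the build GRCh38; their roles, the annotation release and the strand setting are not given in the sources used here. The table deposited by the authors holds raw counts per gene and FPKM, which recomputation from counts, exonic sizes and column totals matched within 0.005. Exonic sizes and gene coordinates, used to place genes, are other values in bases, per the file headers.

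Counts were filtered with filterByExpr (minimum count 10, minimum total 15), scaled by trimmed mean of M-values and fitted with edgeR 4.0.16 in R 4.3.3 (quasi-likelihood, group as the single term), with p-values adjusted by Benjamini-Hochberg across the 16082 genes that passed the filter. Depth was 15298531 to 21744407 counts. Fold changes are Japoflavone B over DMSO, and SE is the log2 fold change over the root of the F statistic. Alternatives were no filter, 3 other scalings, mitochondrial genes left out, DESeq2 1.42.0, limma 3.58.1 on log2(FPKM + 1) and log2(FPKM + 0.1) over the same genes, the replicate number as a block, and each library left out. They were extended to the related lists after seeing the data. The workflow was tested on simulated data. It called in the right direction 64 of 100 genes set to change 1.5-fold and 78 of 100 set to change 2-fold. False calls numbered 14 among 15289 unchanged genes. Changes under 1.5-fold, as in PGLS, PGD, RPE, TKT and TALDO1, were not simulated. The named genes are the 8 members and the genes of the fixed lists; PGLS-DT and KANSL1L, which overlap members, were added after their values were seen. Members and lists were chosen with earlier results of these data known. The lists held 4 symbols (TALDO1P1, PGLSP1, PGD-AS1, ME1-AS1) that matched no row, and those with too few counts were not tested. Some genes of the lists are counted but not reported here by name.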

Additional observations from a re-analysis of the deposited data

How the results depend on the processing

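The 8 genes kept their direction under all 15 alternatives, and 119 of 120 calls were kept. The exception was RPE: with each library left out in turn its log2 fold change ran between -0.24 and -0.14, and the call was lost without Japoflavone B replicate 1 (adjusted p = 0.0618), so that 5 to 6 members were called lower; the cause was not tested. Scaling by library totals alone lowered the median gene by 0.10 log2 and the share of calls that were higher to 42.4%, against 49.5% with trimmed mean of M-values factors. Over all genes the calls ran between 4656 and 5823 higher and between 5345 and 6467 lower. The numbers of the replicates showed no pairing, since deviations from the group mean in same-numbered libraries correlated at 0.013, -0.0042 and -0.045. With the replicate block, 6 members were lower and 2 higher, and 5502 genes were higher and 5618 lower. Among genes of the related lists 838 of 855 calls were kept and none turned direction past the threshold; among NADPH users 1 gene in place of 2 was called higher with library totals or FPKM, and in phosphoribosyl pyrophosphate synthesis 1 gene in place of 0 was called higher without Japoflavone B replicate 1. Depth limits the genes with few counts (RPEL1, ALDH1L1, HK2, PGLS-DT, IDH1-AS1).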
